A study of Mus musculus with 2 samples.

Results

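The Mir378 family of the mouse consists of the microRNA genes Mir378a, Mir378b, Mir378c and Mir378d, which were read here in heart tissue from RNA shorter than 30 bases. The 4 genes were found by gene name among the 2202 microRNA genes of GENCODE M21 listed in the counts, of which 723 had any read. The family was selected on measured values, since Mir378a had the highest level of uniquely mapped reads of all genes in both libraries. The levels below therefore describe the family and test nothing. The tissue came from female mice of the F1 hybrid strain B6CASTF1/J, a cross of C57BL/6 and CAST mice, aged 14 days. There were 2 biological replicates and 1 group, with no treatment, no other genotype and no other tissue, so the only comparisons are between genes and between the 2 libraries. Both libraries carry the same donor label, so the spread between them may be partly technical. A label of replicate 1 speaks of 3 females and that of replicate 2 of a single one, and whether replicate 1 was pooled is not given in the labels. A further label writes the age in months, and the age field, in days, was used.

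MicroRNAs are short RNAs cut from a hairpin precursor. They guide a repressor complex to messenger RNAs, mainly by pairing of the seed, the bases 2 to 8 of the mature form, with the target. The gene of Mir378a lies inside Ppargc1b, which encodes PGC-1 beta, a coactivator of nuclear receptors that drives mitochondrial and fatty acid oxidation genes. Mature miR-378 is known from muscle, heart and brown fat, where it has been tied to energy metabolism and, in cardiomyocytes, to growth signalling.

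The mature sequences are shown because they decide which reads can be told apart. RefSeq (GRCm38.p6) held entries for 3 of the 4 genes, and each is written 5′ to 3′ with its seed in capitals.
miR-378b: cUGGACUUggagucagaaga
miR-378c: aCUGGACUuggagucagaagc
miR-378d: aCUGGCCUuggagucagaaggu

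The forms are near copies of each other, yet no pair of them shares a seed. With positions counted from 1 at the 5′ end of miR-378c, miR-378d differs from it by A6C and C21G, and the first of these changes lies in the seed. The annotated form of miR-378b starts at position 2 of miR-378c and differs from it by C21A, so the same bases are read as a seed that is shifted by 1. Each of these 3 seeds occurs in only 1 of the 1738 mature forms in the RefSeq table, which leaves out Mir378a. The hairpin of Mir378a holds bases 1 to 20 of miR-378c and bases 1 to 19 of miR-378b unbroken, and with them the letters of both seeds. The counts are given per hairpin gene and do not say which arm or which 5′ end was sequenced.

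The hairpins show where the mature form, in capitals, sits in each precursor.
Mir378b: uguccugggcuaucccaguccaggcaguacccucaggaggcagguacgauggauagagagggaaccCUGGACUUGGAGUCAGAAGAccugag
Mir378c: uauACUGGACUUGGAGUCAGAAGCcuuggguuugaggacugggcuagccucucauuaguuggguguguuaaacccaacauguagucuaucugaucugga
Mir378d: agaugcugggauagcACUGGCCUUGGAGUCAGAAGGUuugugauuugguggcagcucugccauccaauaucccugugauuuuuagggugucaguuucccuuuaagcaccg

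The related sequence lies near different ends of the hairpin in different members. In Mir378b the mature form took bases 67 to 86 of 92, towards the 3′ end. In Mir378c it took bases 4 to 24 of 99 and in Mir378d bases 16 to 37 of 110, both towards the 5′ end. In the hairpin of Mir378a, 66 bases long, the longest stretch identical to Mir378c covered bases 43 to 62, towards the 3′ end as in Mir378b. The flanks of Mir378b, Mir378c and Mir378d differ from each other, and the longest identical stretch between Mir378b and Mir378c was 19 bases, which lay within the mature forms.

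How far reads can be assigned follows from these stretches. Mir378a and Mir378c shared 20 identical bases, and Mir378a and Mir378b shared 19. Mir378d stood further off, with 15 bases in common with Mir378a and 14 with each of the other members. Each member hairpin was compared with all others of the 2202, and a stretch of at least 20 bases joined only Mir378a and Mir378c. Pairs without a member were not compared. At 16 bases a further annotated microRNA gene, Gm27881, came into reach of Mir378a and Mir378d, each with 16 bases. Gm27881 (mm10 chromosome 1, 13262198 to 13262279, plus strand) is no member by name, and it is named here after its values were seen. It had 27 reads in replicate 1 and 13 in replicate 2. Reads that map to several places were counted for no gene, and they made up 41.1% of all reads of replicate 1 and 39.9% of replicate 2. A read that lies wholly within a shared stretch matches more than 1 hairpin. Every level below is thus a level of uniquely mapped reads, and how many reads each member lost was not tested.

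**Figure D1:**
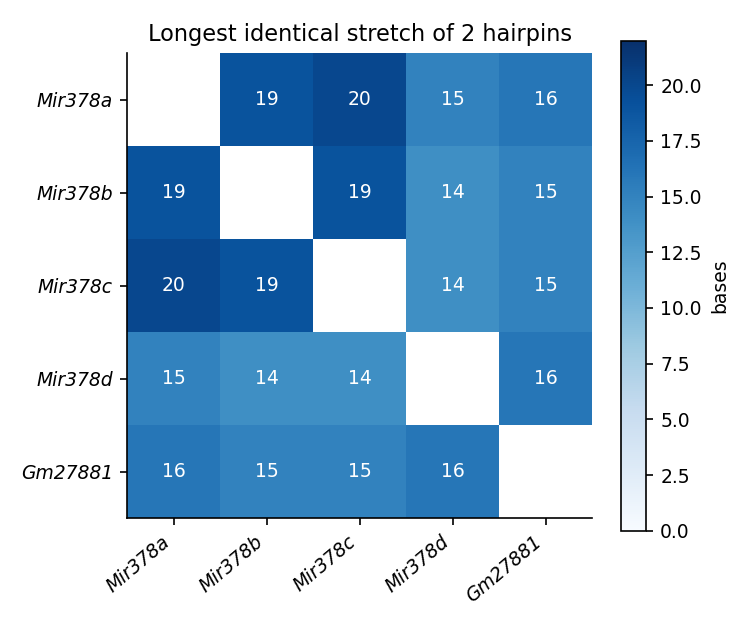
Longest identical stretch, in bases, between each pair of hairpins of the 4 members and Gm27881, shown as a grid with the number written in each cell and darker cells for longer stretches. The longest is the 20 bases of Mir378a with Mir378c, and the row of Mir378d stays between 14 and 16.

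The genes lie in 4 different settings on mm10. Mir378a (ENSMUSG00000105200.1) is at chromosome 18, 61397835 to 61397900, on the minus strand. It lies in intron 1 of all 3 annotated Ppargc1b transcripts that span it, on the same strand as the host and 2531 bases from the start of that gene. Mir378b (ENSMUSG00000092985.1, chromosome 11, 88352773 to 88352864, plus strand) lies in intron 11 of Msi2, which encodes an RNA-binding Musashi protein, on the strand opposite to the host. Mir378c (ENSMUSG00000099036.1, chromosome 14, 46954830 to 46954928, minus strand) lies in an intron of Samd4, which encodes the Smaug repressor of translation, also on the opposite strand, and the intron is number 1 to 3 depending on the transcript. Mir378d (ENSMUSG00000098756.1, chromosome 10, 126710282 to 126710391, minus strand) lies in no annotated gene. Its nearest neighbour is the long noncoding RNA gene Gm47966 at 3614 bases, and the nearest coding gene, Atp23, is 158036 bases away.

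Only Mir378a is therefore on the sense strand of a protein-coding gene. That position was shared by 969 of all 2202 microRNA genes (44.0%), by 155 of the 335 genes detected here (46.3%) and by 10 of the 18 genes whose mean reached 10000 counts per 1000000 counted reads. An antisense position like that of Mir378b and Mir378c was held by 306 of all genes (13.9%) and by 32 of the detected ones (9.55%).

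The precursors also differed in their predicted folding. The hairpin of Mir378a had a minimum free energy of -38.5 kcal/mol, or -0.583 per base, and 95.6% of the 2202 annotated hairpins were less stable per base. The other members lay below the middle, with -0.338 per base for Mir378b, -0.318 for Mir378d and -0.273 for Mir378c, where 40.6%, 31.1% and 13.1% of hairpins were less stable. The median was -0.369 per base over all hairpins and -0.435 over those detected. In the predicted fold of Mir378b and of Mir378c, 15 bases of the mature form were paired, all of them in 1 direction along the hairpin. In Mir378d 13 of 22 were paired, 8 towards the 3′ side and 5 towards the 5′ side, so that its mature form did not lie along a single arm. These energies depend on the annotated ends of each hairpin, whose lengths differ.

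Among the counted reads, nearly every read of the family was a read of Mir378a. Replicate 1 held 12701590 reads in all, of which 5237062 matched a microRNA gene in sense orientation, and replicate 2 held 7126319 and 3026501. Levels are given per 1000000 of those counted reads (CPM). Reads come from short mature arms, so they were not divided by hairpin length. Intervals are exact 95% Clopper-Pearson intervals on the reads of 1 library. They cover counting error only and leave out variation between libraries. Reads that carry no molecular identifier may be copies of 1 molecule, so even for counting error the intervals may be too narrow. An SD rests on the single difference between 2 libraries.

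Mir378a had 971961 reads in replicate 1, or 185593 CPM (interval 185260 to 185926), and 552503 reads in replicate 2, or 182555 CPM (182120 to 182991). The mean was 184074 ± 2148 CPM (SD, n = 2), an SD of 1.17% of the mean. As a share of all reads, unmapped and multiply mapped ones included, this was 7.65% and 7.75%. Among uniquely mapped reads, both libraries gave Mir378a the first rank. Multiply mapped reads, 41.1% and 39.9% of all reads, were counted for no gene. Whether the rank would hold with them was not tested.

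Mir378d was the second member, far below. It had 686 reads in replicate 1, or 131 CPM (121 to 141), and 592 in replicate 2, or 196 CPM (180 to 212), with a mean of 163 ± 45.7 CPM (SD, n = 2). The intervals of the libraries did not overlap, and replicate 2 was higher. Mir378d ranked 148 and 122 among all genes.

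Mir378c was the third member and had nearly equal levels in the libraries. It had 170 reads (32.5 CPM, 27.8 to 37.7) in replicate 1 and 103 reads (34.0 CPM, 27.8 to 41.3) in replicate 2, with a mean of 33.2 ± 1.11 CPM (SD, n = 2). The intervals overlapped for most of their length.

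Mir378b had the fewest reads of the family. It had 66 reads (12.6 CPM, 9.75 to 16) in replicate 1 and 27 reads (8.92 CPM, 5.88 to 13) in replicate 2, with a mean of 10.8 ± 2.60 CPM (SD, n = 2). These values lay above the level that a count of 0 allows, 0.573 CPM in replicate 1 and 0.991 CPM in replicate 2.

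The order Mir378a, Mir378d, Mir378c, Mir378b was the same in both libraries, and no neighbouring intervals overlapped within a library. All 4 members were detected, meaning 10 or more reads in each library, against 15.2% of the 2202 genes. As the members were chosen with their levels known, nothing is read from that count. The median of the 335 detected genes was 73.3 CPM, so that Mir378d lay above it and Mir378c and Mir378b below it.

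**Figure D2:**
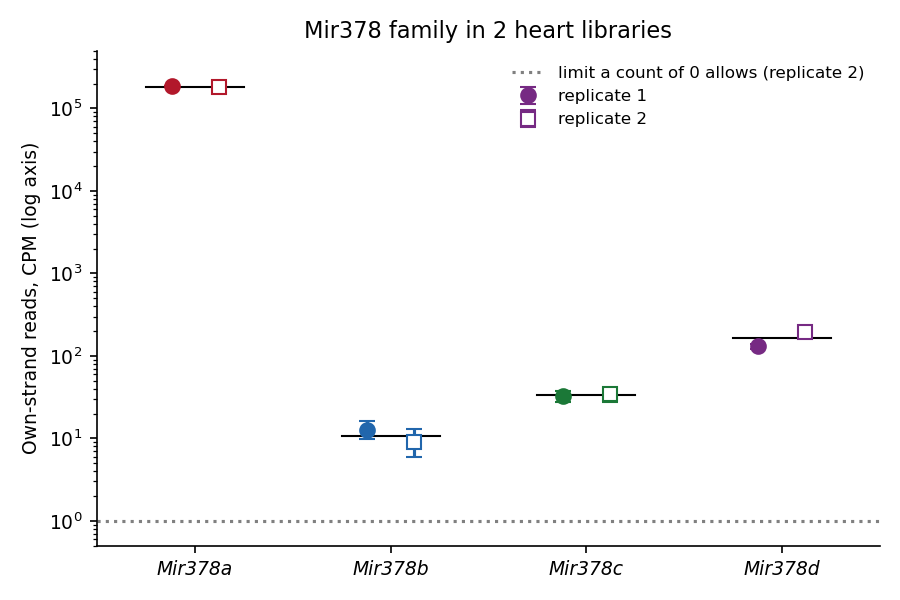
Level of each member in each library, as own-strand CPM on a log axis. Filled circles are replicate 1, open squares replicate 2, bars are exact 95% counting intervals, short lines are means over both libraries and the dotted line is the level that a count of 0 allows in replicate 2; Mir378a stands near 184074 CPM and the others between 8.92 and 196 CPM.

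Within the family, Mir378a took 99.9% of the reads in both libraries (interval 99.90 to 99.91 for replicate 1, and 99.86 to 99.88 for replicate 2). The other 3 members together had 922 reads in replicate 1 and 722 in replicate 2, or 207 ± 44.2 CPM (SD, n = 2). Per 1000000 reads of Mir378a, Mir378d had 706 reads in replicate 1 and 1071 in replicate 2. Mir378c had 175 and 186 on this scale and Mir378b 67.9 and 48.9. In fold terms, Mir378a exceeded Mir378d by 1417-fold and 933-fold, Mir378c by 5717-fold and 5364-fold, and Mir378b by 14727-fold and 20463-fold. The longest stretch shared with Mir378a was 15 bases for Mir378d, 20 for Mir378c and 19 for Mir378b. Whether this sharing bears on their counts was not tested.

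The ratio of a member to Mir378a needs no scaling between libraries. For Mir378d its log2 difference, replicate 1 minus replicate 2, was -0.60 (counting interval -0.76 to -0.44). For Mir378c it was -0.09 (-0.45 to 0.28) and for Mir378b 0.47 (-0.19 to 1.18). Only for Mir378d did the interval leave out 0, so a difference in Mir378b or Mir378c was not detectable at this depth. With 1 library on each side, this compares the 2 libraries and has no replicate check.

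Mir378a was counted only when the strand of the reads was used. GENCODE M21 holds a further microRNA gene, Gm25301 (chromosome 18, 61397813 to 61397925, plus strand), which covers the whole of Mir378a on the other strand. In the deposited unstranded counts Mir378a had 0 reads in both libraries, and the table's class of ambiguous reads held 1355980 and 844614 reads, against 0 in the own-strand column. The reads of Mir378a on both strands equal 71.7% of that class in replicate 1 and 65.4% of it in replicate 2. On its own strand Gm25301 had 6 reads and 0 reads, while its opposite strand held 971961 and 552504. Opposite-strand reads at Mir378a numbered 3 and 0, and the other 3 members had none in either library. The counts of Mir378b, Mir378c and Mir378d were the same in the unstranded and the own-strand column.

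This loss was not particular to Mir378a, but Mir378a was the most abundant gene that it touched. Of the genes with at least 100 own-strand reads, 20 of 238 in replicate 1 (8.40%) and 17 of 208 in replicate 2 (8.17%) had 0 unstranded reads. Among the 18 genes whose mean reached 10000 CPM, Mirlet7e and Mir191 were the other genes at 0 unstranded reads in both libraries. Read without strand, the most abundant gene was Mirlet7i, with 568764 and 393067 reads.

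In uniquely mapped reads, the lead of Mir378a over the next genes was wider in replicate 1 than in replicate 2 for most of them. It stood 1.71-fold and 1.41-fold above Mirlet7i (119239 ± 15041 CPM, SD, n = 2), a member of the let-7 family of differentiation microRNAs. It stood 2.30-fold and 2.11-fold above Mirlet7g and 3.42-fold and 3.11-fold above Mirlet7d. Against Mir126a, an endothelial microRNA, the lead was 4.33-fold and 2.85-fold. Against Mir23b it was 3.44-fold in replicate 1 and 4.01-fold in replicate 2. Mir23b was above Mir126a in replicate 1 and below it in replicate 2, whereas Mir378a, Mirlet7i and Mirlet7g held the first 3 places in both.

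The minor members had neighbours of other families. Mir378d (163 CPM) stood between Mir125b-2 (168 ± 64.0 CPM) and Mir128-1 (161 ± 104 CPM), whose SDs exceed the gaps. Mir378c (33.2 CPM) stood between Mir877 (33.9 ± 1.21 CPM) and Mir493 (32.6 ± 2.56 CPM). Mir378b (10.8 CPM) stood between Mir194-1 (11.2 ± 0.113 CPM) and Mir219a-1 (10.5 ± 0.554 CPM). All of these SDs are over the same 2 libraries, and none of the 3 members can be ordered against these neighbours beyond its spread.

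**Figure D3:**
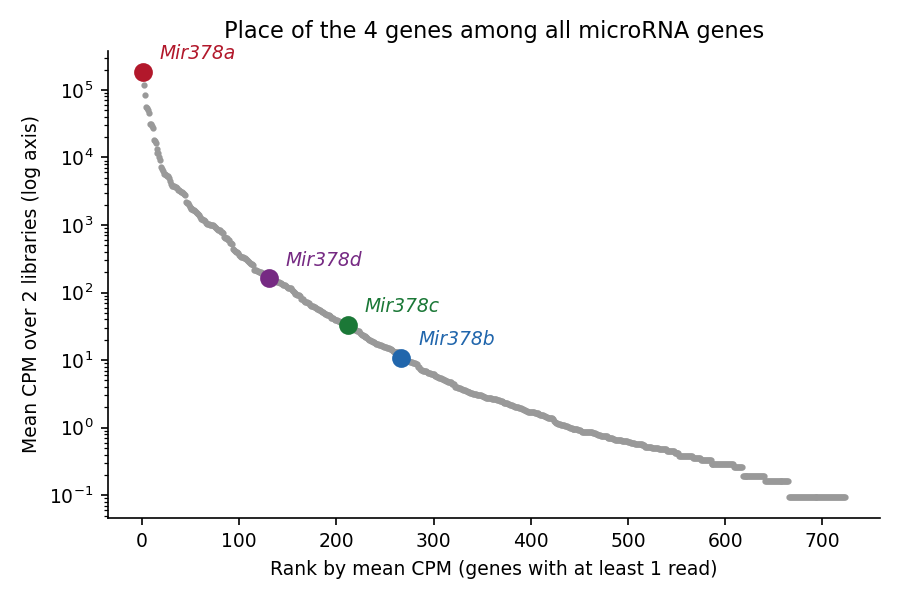
Mean CPM over both libraries, on a log axis, against rank for every microRNA gene with at least 1 read, each a grey point, with the 4 members coloured and named. Mir378a holds rank 1 among uniquely mapped reads, and Mir378d, Mir378c and Mir378b follow at ranks 131, 212 and 267.

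Between the libraries, Mir378a differed less than almost all other genes when counts were scaled by their totals. Its log2 difference, replicate 1 minus replicate 2, was 0.02 (counting interval 0.019 to 0.029), or 1.02-fold. Of the 226 genes that averaged 100 or more reads, 7 had a smaller difference in size and the median size was 0.41. Past 1.5-fold lay 73 of these genes (32.3%), and none of Mir378a, Mir378c and Mir378d was among them. Mir378b, with a mean of 46.5 reads, was under that read minimum. Of the 73 genes, 55 were higher in replicate 1 and 18 lower, while with TMM scaling 82 were past 1.5-fold, 50 higher and 32 lower.

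The sign of so small a difference was set by the scaling. TMM moved all log2 differences by -0.13 and DESeq2 size factors moved them by -0.10, and Mir378a then stood at -0.11 and -0.07. With TMM 28 genes, and with DESeq2 size factors 18 genes, had a smaller difference than Mir378a. So the data give no direction for Mir378a, and its difference stayed within 1.08-fold under the 3 scalings.

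Mir378d was lower in replicate 1 under all 3 scalings, by 1.49-fold with total counts (log2 -0.58, counting interval -0.74 to -0.42) and 1.64-fold with TMM (log2 -0.71). It lay just inside 1.5-fold with total counts and past it with TMM and with DESeq2 size factors (log2 -0.68). The SD of the log2 difference over the 226 genes was 0.91, and the median size 0.41, so the difference of Mir378d lay above that median and within 1 SD. Mir378c (log2 -0.07, -0.43 to 0.30) and Mir378b (log2 0.48, -0.17 to 1.20) had intervals that held 0.

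**Figure D4:**
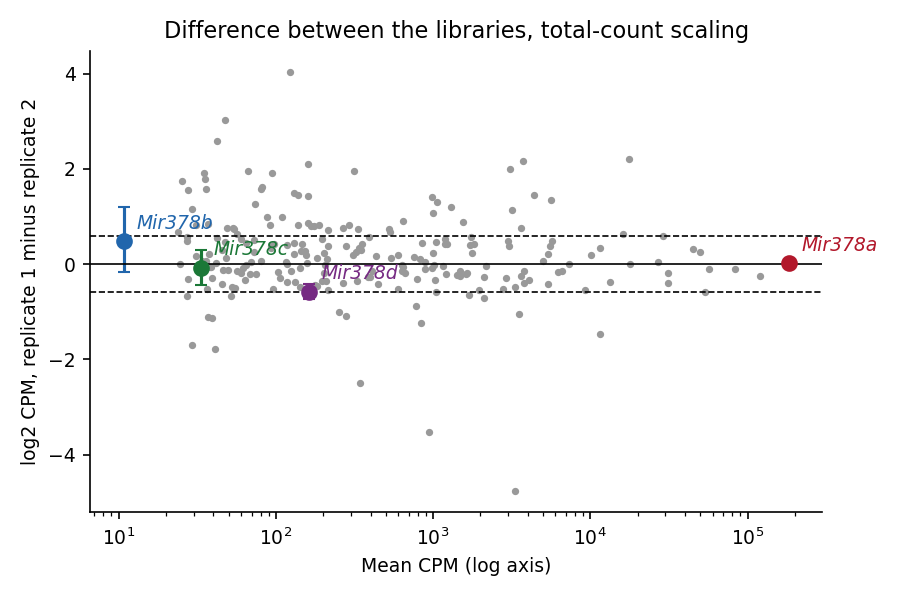
Log2 difference in CPM, replicate 1 minus replicate 2 with total-count scaling, against mean CPM on a log axis. Grey points are the 226 genes that averaged 100 or more reads, coloured points are the members with 95% counting intervals (Mir378b has fewer reads and is added), and dashed lines mark 1.5-fold; Mir378a lies at 0.02 and Mir378d at the lower line.

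The abundant genes most like Mir378a in this measure were chosen by the distance of their log2 difference from that of Mir378a, among the 18 genes whose mean reached 10000 CPM and over only 2 libraries. They were Mir30d (log2 difference 0.0032), Mir99a (0.05), Mirlet7g (-0.10), Mirlet7d (-0.11) and Mir191 (0.18). With total counts, Mir30d alone of the 18 differed less between the libraries than Mir378a. Mir22 lay farthest from it, at 2.22.

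Other microRNAs of striated muscle were far less abundant among uniquely mapped reads. Of the 10 genes of that list, 6 were detected, and the list summed to 5853 and 3867 CPM, so that Mir378a alone exceeded the list 31.7-fold and 47.2-fold. The heart's own myosin-hosted genes were present. Mir499 of Myh7b stood at 3482 and 2486 CPM, Mir208a of Myh6 at 1356 and 641 CPM, and Mir208b of Myh7 at 329 and 288 CPM. Mir486, found in muscle and in red cells, stood at 658 and 410 CPM. The copies of the muscle microRNAs miR-1 and miR-133, which have near-identical copies elsewhere, had between 0 and 110 reads per gene and library, a level of uniquely mapped reads only. In whole heart tissue, fewer cells of a type and less RNA per cell cannot be told apart.

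Between libraries, 5 genes of this list had enough reads. Mir208a (2.12-fold) and Mir486 (1.60-fold) were higher and Mir1a-2 (1.59-fold) lower in replicate 1, past 1.5-fold, against 32.3% of all 226 genes. With TMM Mir486 stood at 1.46-fold. The list's median log2 difference was 0.49, beside 0.09 over all 226 genes, while Mir378a stood at 0.02.

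MicroRNAs known from energy and lipid metabolism gave a second setting for the family. Of the 15 genes of this list that are listed in the counts, 12 were detected, and the list summed to 48696 and 54030 CPM. Mir378a exceeded that sum of uniquely mapped reads 3.81-fold and 3.38-fold. Most of the sum was Mir143 (29124 and 33002 CPM), a microRNA of smooth muscle that has also been tied to adipocytes. Next came Mir335 (4602 and 6126 CPM), hosted by the imprinted gene Mest, and Mir27b (6459 and 2363 CPM), a repressor of adipocyte differentiation. Mir34a, a target of p53, stood at 3248 and 4291 CPM.

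Mir107, hosted by a pantothenate kinase gene and tied to insulin sensitivity, stood at 2293 and 4753 CPM. Mir27a stood at 1428 and 540 CPM, Mir29a at 979 and 724 CPM, Mir185 at 152 and 1743 CPM, and the hypoxia-induced Mir210 at 358 and 430 CPM. Mir33, which lies in Srebf2 and restrains cholesterol export, had only 22 and 14 reads, and Mir802 had none. Mir103-1 had 8 and 16 reads, Mir103-2 had 35 and 74, and Mir26a-1 had 45 and 6. Each of these last genes belongs to a pair of copies by name, so their low counts are of uniquely mapped reads only. Of the 10 genes with enough reads, Mir27a (2.65-fold) and Mir27b (2.73-fold) were higher and Mir185 (11.5-fold) and Mir107 (2.07-fold) lower in replicate 1, past 1.5-fold, beside 32.3% of all 226 genes. The median log2 difference was -0.22, again beside 0.09 over all 226 genes.

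Other tissues that express miR-378 were checked by their own markers. Mir206, a microRNA of skeletal muscle, had 41 and 62 reads, or 7.83 and 20.5 CPM, against 0.573 and 0.991 CPM that a count of 0 allows. The brown adipocyte list had 3 of 7 genes detected and summed to 2024 and 962 CPM, most of it Mir455 (1799 and 785 CPM). Mir193b stood at 118 and 130 CPM, Mir203 at 104 and 43.0 CPM, and Mir196a-1 had no read. The undetected genes, Mir365-1, Mir365-2, Mir196a-1 and Mir196a-2, are paired copies by name. Reads that map to several places were counted for no gene, so these low counts are of uniquely mapped reads only. The part that such tissue has in the level of Mir378a was not tested.

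The lists of other cell types are given as sums beside the family. The endothelial list, nearly all Mir126a, held 42912 and 63991 CPM, and the smooth muscle list, mostly Mir143, held 30333 and 33879 CPM. The fibroblast list held 7023 and 2667 CPM, with 4 of 5 genes detected and Mir199a-1 at 0. Most of that difference was Mir21a (4926 and 1225 CPM), while Mir199b (13.7 and 44.6 CPM) was higher in replicate 2. Mir199a-1 and Mir199a-2 are paired copies by name, so the 0 of Mir199a-1 is a level of uniquely mapped reads only. The erythroid list of Mir451a and Mir144 held 337 and 6972 CPM, and the leukocyte list 3855 and 4154 CPM over 5 genes. Of these, Mir155 (1591 and 2619 CPM) was higher in replicate 2 and the other 4 were higher in replicate 1, with a median log2 difference of 0.43. Mir122 of liver stood at 55.9 and 70.4 CPM. The Mir378 family as a whole held 185769 CPM in replicate 1 and 182794 CPM in replicate 2. The family made up 18.4% ± 0.210 of counted reads (SD, n = 2), and the erythroid sum was 20.7-fold higher in replicate 2. The part of these cell types in the levels of the family was not tested.

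**Figure D5:**
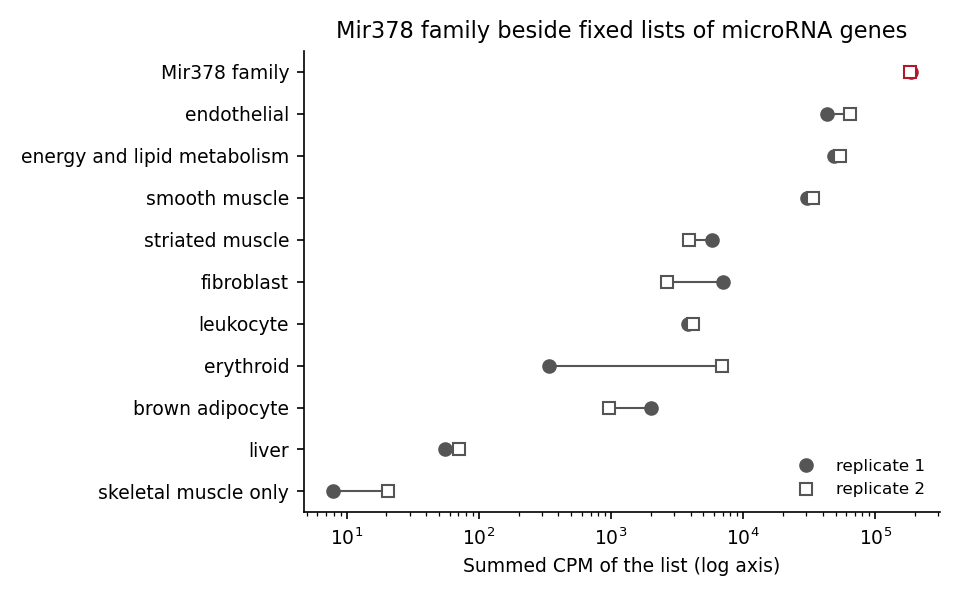
Summed CPM, on a log axis, of the Mir378 family and of each fixed list, with filled circles for replicate 1 and open squares for replicate 2 joined by a line. The family has the highest sum of uniquely mapped reads and nearly coinciding symbols. The erythroid list has the longest line, from 337 to 6972 CPM. Mir143 counts in 2 of the lists.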

How the data were processed

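MicroRNA-seq of heart tissue from 2 biological replicates was used. The authors deposited raw read counts, whole numbers per gene and library, in unstranded, own-strand and opposite-strand columns. Per the deposited readme, they rest on mm10 and GENCODE M21, while no trimming, aligner or counting tool is given in the sources used here. The columns' strands were inferred from their values. The first 4 lines name no gene and were left out: unmapped reads (13.4% and 13.3%), multiply mapped reads (41.1% and 39.9%), reads on no microRNA gene (4.33% and 4.30%) and ambiguous reads (0 by own strand). The own-strand column, scaled to 1000000 counted reads, was used unless strand is named.

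The libraries' counts differed beyond sampling noise (chi-square of 634 per degree of freedom over 372 genes). With 1 library on each side no test was made and no p-value is given. A log2 difference was taken after adding 0.5 to both counts, with an exact conditional 95% interval. The script was tested on simulated data that held counting error only, so that test does not cover the variation between these libraries. Alternatives used the unstranded column, other denominators, TMM (edgeR 4.0.16) and size factors (DESeq2 1.42.0, both under R 4.3.3), other read minimums and stretch lengths, and each replicate alone. Hairpins came from the transcripts of GENCODE M21 and were folded with RNAfold 2.7.2, and the genome was not searched for further copies. Intervals were computed with scipy 1.17.1 under Python 3.11.15.

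Named genes were the members, the 5 genes next below Mir378a, the nearest gene above and below each other member, genes with a shared stretch or seed, the 5 abundant genes nearest Mir378a in log2 difference, and the lists, with values for striated muscle and metabolism genes above 100 CPM. Gm25301, Gm27881, Mirlet7e, Mir22 and marker genes outside that rule were named after their values were seen. The members and lists were chosen with earlier results of these data known.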

Additional observations from a re-analysis of the deposited data

How the results depend on the processing

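Depth limits Mir378b and Mir378c most, and the shared stretches limit which reads any member could receive; the number lost was not measured. Unstranded counts gave Mir378a 0 CPM and 0% of the family, so that it has no log2 difference there, and raised the others through the smaller total, to 14.7 CPM for Mir378b, 45.5 for Mir378c and 224 for Mir378d. Scaled by all reads, Mir378a stood at a CPM of 77026, Mir378b at 4.49, Mir378c at 13.9 and Mir378d at 68.5. With reads outside genes added to the denominator, Mir378a stood at 166874 and Mir378c at 30.1 CPM. With Mir378a left out of the denominator these became 225605 and 40.7, and the log2 difference of Mir378a was 0.029. That difference changed sign from 0.024 to -0.11 with TMM and -0.073 with DESeq2 size factors. Each denominator acts by its own size. Genes past 1.5-fold between the libraries rose from 73 of 226 (32.3%) to 149 of 372 (40.1%) with a mean of at least 10 reads. With any read, they numbered 445 of 723 (61.5%). At the lowest counts the measure itself passes 1.5-fold, since a gene with 1 read in each library stood at log2 -0.79. What else bears on the rise was not tested. Detected genes numbered 391 at 5 reads, 231 at 50 reads and 308 without strand, against 335. At 16 bases 4 genes shared a stretch with a member, counting members too: Mir378a, Mir378b, Mir378c and Gm27881. At 24 bases 0 did, against 2 at 20 bases, which were the members Mir378a and Mir378c. Altogether 35 alternatives stayed within 1 SD, within the counting interval of a log2 difference or, for counts of genes, within 1.5 times the main count. Another 18 moved past these limits and 2 changed sign. With 2 libraries, a level or share from either replicate alone lies within 1 SD of the mean by construction. Those alternatives are among the 35 and could not have moved. No paired analysis was possible because there was only 1 group.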
